A study of Mus musculus with 10 samples.

Results

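The effect of a genotype that targets the phosphatase SHP-2 was compared between 2 myeloid populations of mice bearing MC17-51 fibrosarcomas. These were tumor-associated macrophages (TAM) from the tumor and myeloid-derived suppressor cells (MDSC) from the spleen. The quantity described is the difference of genotype effects on the log2 scale, (TAM Shp2f/fLysMcre minus TAM Shp2f/f) minus (MDSC Shp2f/fLysMcre minus MDSC Shp2f/f), taken from 1 model of cell type, genotype and their interaction. A value below 0 means that the genotype effect was lower in TAM than in MDSC. All 10 samples of the series entered the model, and 16581 of the 55421 genes in the table had enough counts to be tested. Of these, 13147 were also tested within each cell type.

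All mice carried a floxed Ptpn11 gene, and the Shp2f/fLysMcre mice also carried Cre at the lysozyme M locus (Lyz2), which is active in myeloid cells as a class and deletes the floxed segment in granulocytes, monocytes and macrophages. Mice were 8 to 12 weeks old when tumors were implanted, and cells were taken at day 15. There were 2 Shp2f/f and 2 Shp2f/fLysMcre samples of MDSC, labelled as Gr-1+ cells, and 3 of each genotype for TAM, sorted by surface markers. The labels do not say whether a sample pooled several mice or whether samples of a group were separate animals, so p-values measure the spread between these samples, which may be technical in part. By the methods, each mouse gave both cell types, but no label ties a TAM sample to an MDSC sample.

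SHP-2 is a cytoplasmic tyrosine phosphatase that is recruited to growth factor and cytokine receptors and to inhibitory receptors. It is known for relaying growth factor signals to the RAS and ERK kinases, and it also dephosphorylates components of JAK and STAT signaling. Cells that enter the division cycle transcribe replication genes under E2F factors and later mitotic genes under the DREAM, MYBL2 and FOXM1 complexes, so these groups usually move together. Interferon-stimulated genes form another coordinated group, driven by STAT and IRF transcription factors.

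Total counts were between 28844660 and 38222998 per library. The spread between replicates was larger in MDSC (biological coefficient of variation 0.189 over 4 samples) than in TAM (0.0595 over 6 samples), so counts from limma voom with a weight per cell type are given beside those of edgeR. The model of 10 samples pools the spread of both cell types (0.141). Standard errors (SE), intervals and p-values of the difference may thus be too narrow, and its SE can lie below that of the MDSC effect. Ly6g, the defining marker of granulocytes and of granulocytic MDSC, was present in the MDSC libraries at 8.92 to 33.2 normalised counts (CPM, read counts scaled to a common library total), and was at most 0.287 CPM in TAM. The monocyte chemokine receptor gene Ccr2 was 1209 to 1964 CPM in MDSC and 305 to 430 CPM in TAM, so the MDSC libraries held transcripts of monocytes as well as of granulocytes. The study's methods describe these samples as granulocytic MDSC taken with magnetic beads as Ly6G+ and Ly6C- cells, a gate that should remove monocytes, and Ly6c2 was 476 to 577 CPM in MDSC against 125 to 151 CPM in TAM. The marker levels thus go against a purely granulocytic population, and the samples are called MDSC as the labels have it. The library of MDSC Shp2f/fLysMcre replicate 2 stood apart by fibroblast and matrix genes, whose summed level was 923 CPM there and 34.8 to 58 CPM in the other MDSC libraries. The X-linked Xist was 0.0289 and 0.0290 CPM in MDSC Shp2f/f and 132 and 119 CPM in MDSC Shp2f/fLysMcre, and 4.82 to 18.1 against 209 to 372 CPM in TAM. The sex make-up of the libraries thus differed with genotype in both cell types, and the effects of sex and genotype cannot be told apart. The Y-linked Eif2s3y had log2 fold changes of -1.39 in MDSC and -1.57 in TAM. The Shp2f/fLysMcre groups thus held Y-linked transcripts beside Xist, and their libraries may pool mice.

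The targeted transcript was examined before other genes. Ptpn11 (ENSMUSG00000043733, GRCm38 chromosome 5, 121130533 to 121191397) was 121, 125 and 121 CPM in TAM Shp2f/f and 50.9, 54.2 and 53.9 CPM in TAM Shp2f/fLysMcre. In MDSC it was 113 and 99.2 CPM in Shp2f/f and 94.8 and 79.8 CPM in Shp2f/fLysMcre. The genotypes did not overlap in either cell type, but the gap was narrow in MDSC. The log2 fold change of Ptpn11 was -1.24 in TAM (SE 0.0386, edgeR quasi-likelihood, adjusted p = 2.96e-09) and -0.29 in MDSC (SE 0.143, edgeR quasi-likelihood, adjusted p = 0.361), and the difference of -0.92 (SE 0.118, 95% interval -1.19 to -0.66) passed the same test (edgeR quasi-likelihood, adjusted p = 0.00045). The counts cover the whole gene, so transcript of a deleted allele can still be counted. In bulk libraries, fewer cells with a deletion and less transcript per cell cannot be told apart. Lyz2 (ENSMUSG00000069516), the locus that carries Cre, fell in both cell types, with log2 fold changes of -7.68 in MDSC and -8.33 in TAM. It was 8966 and 9463 CPM in MDSC Shp2f/f and 43.3 and 47.1 CPM in MDSC Shp2f/fLysMcre. In TAM it was 3437 to 3666 CPM in Shp2f/f and 9.38 to 12.6 CPM in Shp2f/fLysMcre. Lyz2 thus changed with genotype in both cell types, and its effects and those of Ptpn11 cannot be told apart. Lyz1, the paralog of Lyz2, was 3.78 and 4.27 CPM in MDSC Shp2f/f and 93.1 and 101.0 CPM in MDSC Shp2f/fLysMcre. In TAM it was 1.88 to 3.08 CPM in Shp2f/f and 71.2 to 82.0 CPM in Shp2f/fLysMcre. The difference of its effects was 0.29 (edgeR quasi-likelihood, adjusted p = 0.379). Lyz1 and Lyz2 are near-identical copies whose shared reads the counting could split, so both values are uncertain.

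The genotype effect differed between the cell types for 4132 genes, 24.9% of those tested (edgeR quasi-likelihood, adjusted p under 0.05). The effect was more positive in TAM for 2030 genes (12.2%) and more negative in TAM for 2102 (12.7%), and 6220 genes had an unadjusted p under 0.05. Voom with a weight per cell type called 2803 genes (16.9%), and 2774 were called by both methods. Combining the separate fits of the cell types, which keeps their spreads apart, gave 2459 calls. Scaling by total counts in place of TMM moved the median difference of all genes from -0.01 to -0.18 and split the calls into 1234 and 3132. Directions below are therefore relative to the TMM scale.

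Within a cell type, the numbers of calls were unequal. In MDSC 556 of 14806 genes rose in Shp2f/fLysMcre (3.76%) and 77 fell (0.52%), while in TAM 3452 of 14446 rose (23.9%) and 3805 fell (26.3%). Of the 13147 genes tested in both, 242 rose in MDSC and fell in TAM with the difference called too (1.84%), and 22 were called lower in MDSC and higher in TAM (0.167%). There were 80 genes higher in both cell types (0.609%) and 17 lower in both (0.129%). A larger class was called in the difference and in TAM without a call in MDSC, 1673 genes higher and 1155 lower in TAM. The reverse, a call in MDSC without one in TAM, held for 95 genes higher and 16 lower in MDSC.

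These class sizes rest on the 4 MDSC libraries. When MDSC Shp2f/f replicate 1 or replicate 2 was left out, no gene stayed opposed by the edgeR thresholds, and the like classes held 0 and 1 gene. With an unadjusted p under 0.05 for the MDSC effect in its place, a threshold chosen after seeing the data, leaving out these libraries gave 338 and 294 genes higher in MDSC and lower in TAM, and 56 and 40 of the reverse kind. Without MDSC Shp2f/fLysMcre replicate 1 there were 780 and 746 opposed genes of the 2 kinds, and without MDSC Shp2f/fLysMcre replicate 2 there were 646 and 293. Leaving out any 1 of these 4 libraries, the difference kept its sign for all 242 and all 22 genes. Its median was -1.745 to -1.665 over the 242 and 1.298 to 1.394 over the 22. The genes were chosen by calls in these same libraries, so this is a description and no test.

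**Figure D1:**
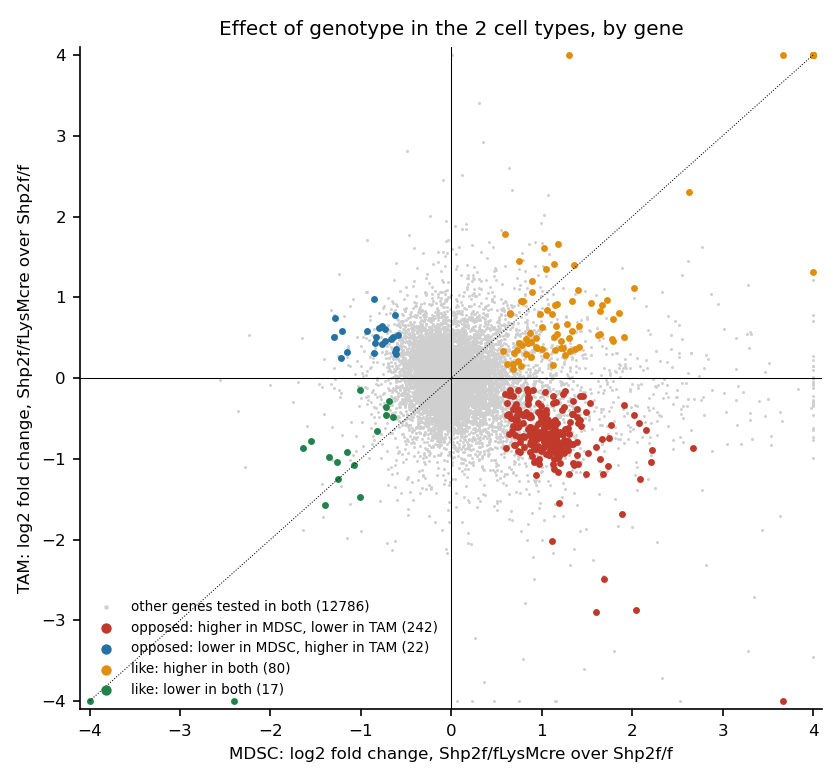
Log2 fold change of Shp2f/fLysMcre against Shp2f/f in MDSC (x axis) and in TAM (y axis) for the 13147 genes tested in both cell types, with the opposed and like classes in color and a dotted line where the effects are equal. The 242 genes higher in MDSC and lower in TAM lie at the lower right, the 22 of the reverse kind at the upper left, and 50 genes beyond the limit of 4 are drawn at the edge.

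Genes of cell division made up the clearest group of opposed effects. The DNA replication list held 40 genes, such as the helicase subunits Mcm2 to Mcm7, the ribonucleotide reductase genes Rrm1 and Rrm2 and the polymerase clamp Pcna, and each was tested in both cell types. The difference was called negative for 40 of 40 genes by edgeR and for 39 by voom, where 28.7% of all genes tested in both were called in either direction. In MDSC 33 of the 40 rose and 0 fell, with a median log2 fold change of 0.90 over the list (1.86-fold). In TAM 39 fell and 0 rose, with a median of -0.61 (0.654 of the Shp2f/f level). The median difference was -1.47, beside 0.04 for all genes tested in both. The 33 genes called in both cell types were opposed, and none of the 40 was called in the same direction in both.

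The summed level of the DNA replication list was 1553 and 1568 CPM in MDSC Shp2f/f and 2937 and 2815 CPM in MDSC Shp2f/fLysMcre. It was 2279, 2344 and 2271 CPM in TAM Shp2f/f and 1656, 1575 and 1505 CPM in TAM Shp2f/fLysMcre. The order of the cell types thus changed with genotype. In Shp2f/f, the mean level was higher in TAM than in MDSC for 32 of the 40 genes, and in Shp2f/fLysMcre for 2 of the 40.

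Mcm6 (ENSMUSG00000026355, chromosome 1, 128331590 to 128359664), a subunit of the replicative helicase, was 90.1 and 90.0 CPM in MDSC Shp2f/f and 178 and 169 CPM in MDSC Shp2f/fLysMcre. In TAM it was 254, 270 and 252 CPM in Shp2f/f and 149, 148 and 135 CPM in Shp2f/fLysMcre. The genotypes were apart in both cell types, in opposite order, and the Shp2f/fLysMcre libraries of both cell types lay within 135 to 178 CPM. Its log2 fold change was 0.94 in MDSC (edgeR quasi-likelihood, adjusted p = 0.0202) and -0.88 in TAM (edgeR quasi-likelihood, adjusted p = 8.98e-08), with a difference of -1.79 (SE 0.0913, 95% interval -1.99 to -1.58, edgeR quasi-likelihood adjusted p = 6.55e-06). Rrm2, the regulated subunit of ribonucleotide reductase, had the largest MDSC effect of the list at 1.35, and its difference was -2.14. Pcna was the weakest of the 4 members with the highest CPM, with 149 to 153 CPM in TAM Shp2f/f and 133 to 153 CPM in TAM Shp2f/fLysMcre, so the TAM groups overlapped. Mcm5, with 101 and 91.6 CPM in MDSC Shp2f/f and 185 and 151 CPM in MDSC Shp2f/fLysMcre, missed the threshold in MDSC (edgeR quasi-likelihood, adjusted p = 0.0503). The range over the list was 0.28 for Rfc2 to 1.35 in MDSC and -0.95 for Ccne2 to -0.09 for Rfc2 in TAM.

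The mitosis list held 35 genes, and the difference was called negative for 35 of 35 by edgeR and by voom. In MDSC 27 rose and 0 fell, with a median of 1.01 (2.02-fold), and in TAM 35 fell, with a median of -0.79 (0.577 of the Shp2f/f level). The median difference was -1.78. The summed level was 1324 and 1269 CPM in MDSC Shp2f/f, 2782 and 2347 CPM in MDSC Shp2f/fLysMcre, 1797, 1840 and 1796 CPM in TAM Shp2f/f and 1102, 1029 and 1021 CPM in TAM Shp2f/fLysMcre. TAM had the higher mean level for 30 of the 35 genes in Shp2f/f and for 1 of the 35 in Shp2f/fLysMcre.

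Mki67 (ENSMUSG00000031004, chromosome 7, 135689784 to 135716361), the proliferation antigen Ki-67 that coats mitotic chromosomes, was 215 and 188 CPM in MDSC Shp2f/f and 478 and 379 CPM in MDSC Shp2f/fLysMcre. In TAM it was 229, 224 and 222 CPM in Shp2f/f and 118, 121 and 119 CPM in Shp2f/fLysMcre. The Shp2f/f levels of the cell types were close, and the Shp2f/fLysMcre levels were far apart. The log2 fold changes of 1.08 in MDSC and -0.95 in TAM gave a difference of -2.0 (SE 0.135, 95% interval -2.30 to -1.70, edgeR quasi-likelihood adjusted p = 1.38e-05). Top2a, the topoisomerase that untangles chromosomes, differed by -1.99, and Ccna2, the cyclin of S phase and early mitosis, by -1.95. Bub1b, a spindle checkpoint kinase, was 45.8 and 45.8 CPM in MDSC Shp2f/f and 88.1 and 62.0 CPM in MDSC Shp2f/fLysMcre, and its MDSC effect of 0.71 missed the threshold (edgeR quasi-likelihood, adjusted p = 0.117). Under the 25 alternatives tried, the difference was called negative for 35 to 40 genes of the DNA replication list and for 34 or 35 mitosis genes, fewest where it had to be at least 1 in size. The number of these genes called within MDSC was 0 in both lists when either MDSC Shp2f/f library was left out, and at an adjusted p under 0.01.

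**Figure D2:**
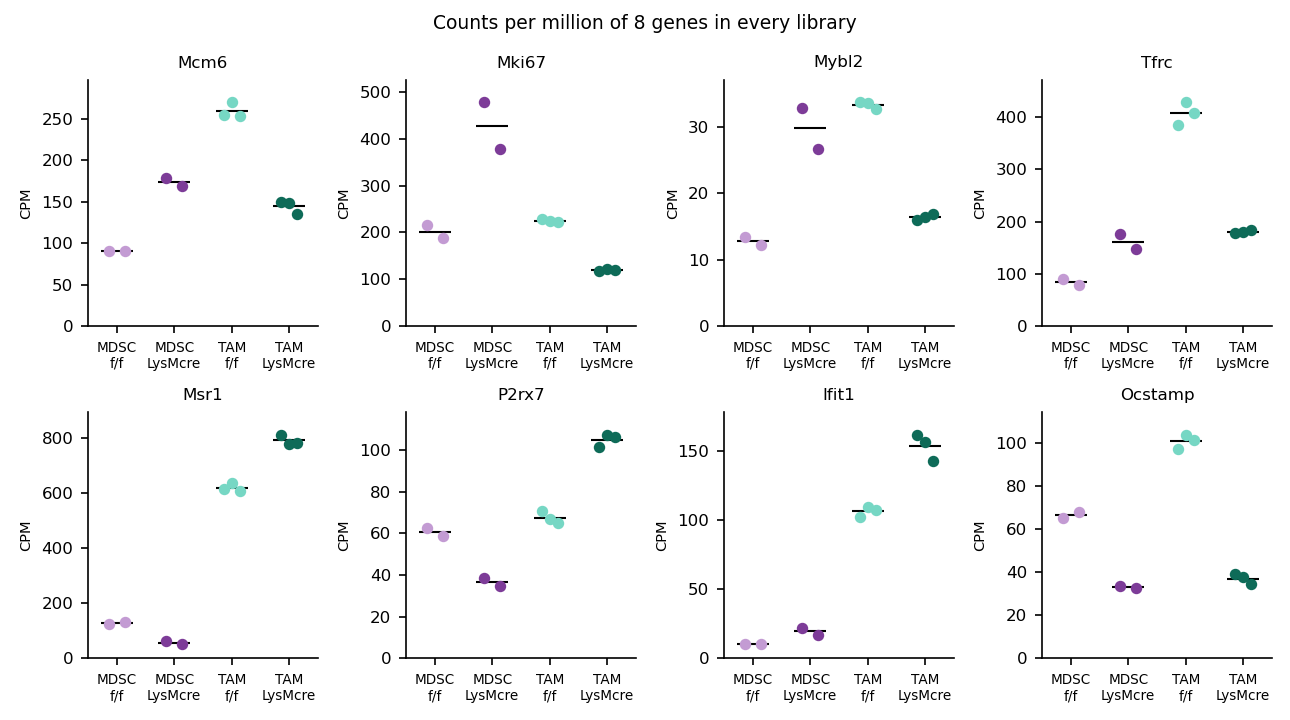
Level in CPM of 8 genes in each of the 10 libraries, grouped by cell type and genotype, with a line at each group mean and axes that start at 0. In Shp2f/fLysMcre, Mcm6, Mki67, Mybl2 and Tfrc were raised in MDSC and reduced in TAM, Msr1 and P2rx7 the reverse, Ifit1 was higher and Ocstamp lower in both.

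Sequence upstream of the start of genes from both lists is shown because these members moved together, and because replication and mitotic genes are known for different promoter letters. The stretches are the last 150 bases before the start in RefSeq, build GRCm38.p6, written 5′ to 3′ on the strand of the gene. Capitals mark the E2F letters TTTGGCGC or TTTCCCGC in replication genes, and the cell cycle homology region letters TTTGAA (CHR) in mitotic genes, each searched on both strands. Mcm6 lies on the minus strand (chr1:128359706-128359855) and Mcm5 on the plus strand (chr8:75109359-75109508). Mki67 (chr7:135716380-135716529), Top2a (chr11:99024190-99024339) and Cdc20 (chr4:118437344-118437493), whose product activates the anaphase-promoting complex, lie on the minus strand. Only stretches that held marked letters are shown, so the display was chosen after the motifs had been seen. Rrm1, Pcna, Bub1b, Plk1 and Mybl2 were searched too, and their 150 bases held no such letters.
Mcm6: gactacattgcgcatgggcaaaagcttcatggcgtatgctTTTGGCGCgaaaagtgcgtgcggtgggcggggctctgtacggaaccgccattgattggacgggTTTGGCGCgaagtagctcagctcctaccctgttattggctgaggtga
Mcm5: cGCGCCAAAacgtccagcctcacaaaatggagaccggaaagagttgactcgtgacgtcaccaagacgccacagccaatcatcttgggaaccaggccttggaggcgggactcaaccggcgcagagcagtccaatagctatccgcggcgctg
Mki67: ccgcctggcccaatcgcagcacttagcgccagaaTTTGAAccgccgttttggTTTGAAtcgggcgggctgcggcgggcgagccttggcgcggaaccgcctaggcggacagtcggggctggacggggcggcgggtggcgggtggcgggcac
Top2a: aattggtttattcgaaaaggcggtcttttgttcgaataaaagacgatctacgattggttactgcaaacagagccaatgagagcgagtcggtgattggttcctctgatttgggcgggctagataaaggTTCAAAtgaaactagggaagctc
Cdc20: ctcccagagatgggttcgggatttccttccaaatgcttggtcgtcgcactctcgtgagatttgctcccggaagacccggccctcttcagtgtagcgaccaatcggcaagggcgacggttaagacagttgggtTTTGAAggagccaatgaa

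Mcm6 held the E2F letters 102 and 39 bases before its start. Mcm5 held them 141 bases before it, on the opposite strand. Mki67 held the CHR letters 110 and 92 bases before its start, and Cdc20 12 bases before it. Windows of 300 bases, 250 before the start to 50 after it, were at hand for 11361 of the tested genes. E2F letters were in 31.2% of the 32 DNA replication windows and in 0% of the 30 mitosis windows, beside 2.92% of all windows. CHR letters showed the reverse, with 12.5% of DNA replication windows, 76.7% of mitosis windows and 12.4% of all. The letters CCAAT, the box bound by NF-Y, were in 56.2%, 76.7% and 38.5%. Among opposed genes higher in MDSC and lower in TAM that were on neither list, 139 had a window, and 12.9% held E2F, 30.2% CHR and 59.0% CCAAT letters. The opposed genes outside the lists thus held each of these motifs more often than all windows did, a comparison made without a test. The 14 windows of the reverse opposed class held E2F in 0%, CHR in 28.6% and CCAAT in 28.6%. The 24 windows of interferon-stimulated genes held them in 4.17%, 25% and 33.3%, so CHR letters were not particular to genes higher in MDSC and lower in TAM. A match of letters is a description and not a binding site, and no match says only that these letters were not in the window.

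**Figure D3:**
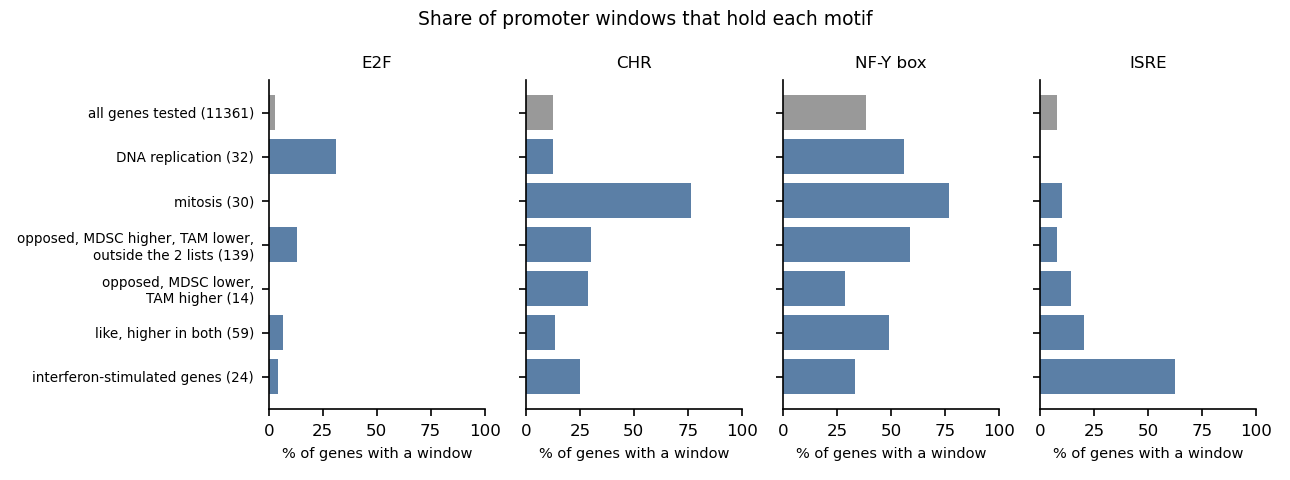
Share of promoter windows that held each of 4 motifs, in percent of genes with a window (number in brackets), for all tested genes and 6 gene groups. E2F letters were most frequent in the DNA replication list (31.2%), CHR letters in the mitosis list (76.7%) and interferon response letters in the interferon-stimulated genes (62.5%).

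Of the 242 genes higher in MDSC and lower in TAM, 60 were on these lists, and 182 were not. Over the 242 the median log2 fold change was 1.05 in MDSC and -0.70 in TAM, and the median difference was -1.70. These medians describe genes chosen by their calls and are no test. Regulators of the cell cycle were among those outside the lists. Mybl2 (ENSMUSG00000017861, chromosome 2, 163054687 to 163084688), the MYB factor that activates mitotic genes, was 13.4 and 12.3 CPM in MDSC Shp2f/f, 32.9 and 26.7 CPM in MDSC Shp2f/fLysMcre, 33.7, 33.6 and 32.8 CPM in TAM Shp2f/f and 15.9, 16.5 and 16.9 CPM in TAM Shp2f/fLysMcre. Each population had in one genotype about the level that the other population had in the other genotype. The difference was -2.23 (SE 0.130, edgeR quasi-likelihood, adjusted p = 9.23e-06). Foxm1, the forkhead factor of mitotic genes, differed by -1.99, and Ticrr, which loads the replication initiation factor CDC45, by -2.44. E2f1, itself on the DNA replication list, differed by -0.83.

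Other opposed genes of the largest differences had roles outside the cell cycle. Tfrc (ENSMUSG00000022797), the transferrin receptor that brings iron into cells, was 89.2 and 78.0 CPM in MDSC Shp2f/f, 175 and 146 CPM in MDSC Shp2f/fLysMcre, 386, 428 and 407 CPM in TAM Shp2f/f and 178, 180 and 184 CPM in TAM Shp2f/fLysMcre. The genotypes were apart in both cell types, and the difference was -2.12 (SE 0.127, edgeR quasi-likelihood, adjusted p = 1e-05). Car2, a carbonic anhydrase of red cells and macrophages, was 117 and 126 CPM in MDSC Shp2f/f, 289 and 330 CPM in MDSC Shp2f/fLysMcre, 39.5, 41.7 and 40.3 CPM in TAM Shp2f/f and 21.1, 19.1 and 20.1 CPM in TAM Shp2f/fLysMcre. It differed by -2.36 (edgeR quasi-likelihood, adjusted p = 6.5e-06). Alad and Cpox, enzymes of heme synthesis, differed by -1.60 and -1.13, and Gfi1b, a transcription factor of red cells and platelets, by -2.16. Asns, the asparagine synthetase that responds to amino acid shortage, was 15.6 and 18.4 CPM in MDSC Shp2f/f, 37.1 and 38.1 CPM in MDSC Shp2f/fLysMcre, 33.8, 35.2 and 41.2 CPM in TAM Shp2f/f and 19.6, 15.9 and 16.2 CPM in TAM Shp2f/fLysMcre. Its difference was -2.24 (edgeR quasi-likelihood, adjusted p = 2.7e-05).

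Hip1r, which links clathrin coats to actin, had the largest difference among the opposed genes named by rule, -2.79, with 13.5 and 13 CPM in MDSC Shp2f/f, 45.5 and 42.8 CPM in MDSC Shp2f/fLysMcre, 3.94 to 7.01 CPM in TAM Shp2f/f and 2.35 to 2.59 CPM in TAM Shp2f/fLysMcre. Fcnb, a ficolin of granulocyte precursors, followed at -2.65 with under 1 CPM in each TAM library. Ly75, an endocytic receptor, differed by -2.45, the lipid transfer gene Stard10 by -2.41, the organic anion transporter gene Slco4a1 by -2.40 and the myosin gene Myo1d by -2.15. Of these, Fcnb and Stard10 had low TAM levels, so their TAM effects rest on few counts.

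Erythroid markers moved in MDSC beside the division genes. The summed level of the erythroid list was 808 and 844 CPM in MDSC Shp2f/f and 1674 and 1812 CPM in MDSC Shp2f/fLysMcre, and 508 to 558 CPM in TAM Shp2f/f and 286 to 291 CPM in TAM Shp2f/fLysMcre. The TAM sum is carried mainly by Tfrc, with 386 to 428 CPM in Shp2f/f and 178 to 184 CPM in Shp2f/fLysMcre, while the median TAM effect of the list was 0.46. Of its 12 members tested in both cell types, 9 rose in MDSC, and in TAM 4 rose and 2 fell, the latter Tfrc and Car2. The band 3 gene Slc4a1, which defines red cells, was 49.3 to 190 CPM in MDSC and at most 0.0297 CPM in TAM. Their part in the opposed effects was not tested.

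There were 22 genes lower in MDSC and higher in TAM by the thresholds, and among them were a scavenger receptor and purine receptors. Msr1, a scavenger receptor, was 124 and 131 CPM in MDSC Shp2f/f, 62.9 and 51.7 CPM in MDSC Shp2f/fLysMcre, 613, 634 and 607 CPM in TAM Shp2f/f and 811, 778 and 782 CPM in TAM Shp2f/fLysMcre. The order of the genotypes was opposite in the cell types, and a lack of overlap was a condition for naming the gene. The log2 fold changes were -1.16 in MDSC (edgeR quasi-likelihood, adjusted p = 0.0208) and 0.32 in TAM (edgeR quasi-likelihood, adjusted p = 2.1e-05), and the difference was 1.51.

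There were 3 receptors for extracellular nucleotides in this class. P2rx7 (ENSMUSG00000029468, chromosome 5, 122643911 to 122691432), the ATP-gated channel upstream of the inflammasome, was 62.5 and 58.7 CPM in MDSC Shp2f/f, 38.6 and 34.9 CPM in MDSC Shp2f/fLysMcre, 70.6, 66.7 and 65 CPM in TAM Shp2f/f and 101.4, 107 and 106 CPM in TAM Shp2f/fLysMcre. The difference of P2rx7 was 1.36 (SE 0.0938, edgeR quasi-likelihood, adjusted p = 1.49e-05). Its neighbor P2rx4, another ATP-gated channel, was 69.6 and 73.6 CPM in MDSC Shp2f/f, 39 and 41.7 CPM in MDSC Shp2f/fLysMcre, 212 to 213 CPM in TAM Shp2f/f and 301 to 316 CPM in TAM Shp2f/fLysMcre, a difference of 1.37. P2ry6, a receptor for UDP, differed by 1.15 and was added after its values were seen. The metalloproteinase gene Mmp19 (1.54), the membrane protein gene Emp1 (1.49), the Toll-like receptor gene Tlr1 (1.46) and Nxpe5 (1.82), Tmem37 (1.83) and Zdhhc23 (1.43) were also among the largest differences of the class. The 22 differences ranged from 0.94 to 2.06.

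**Figure D4:**
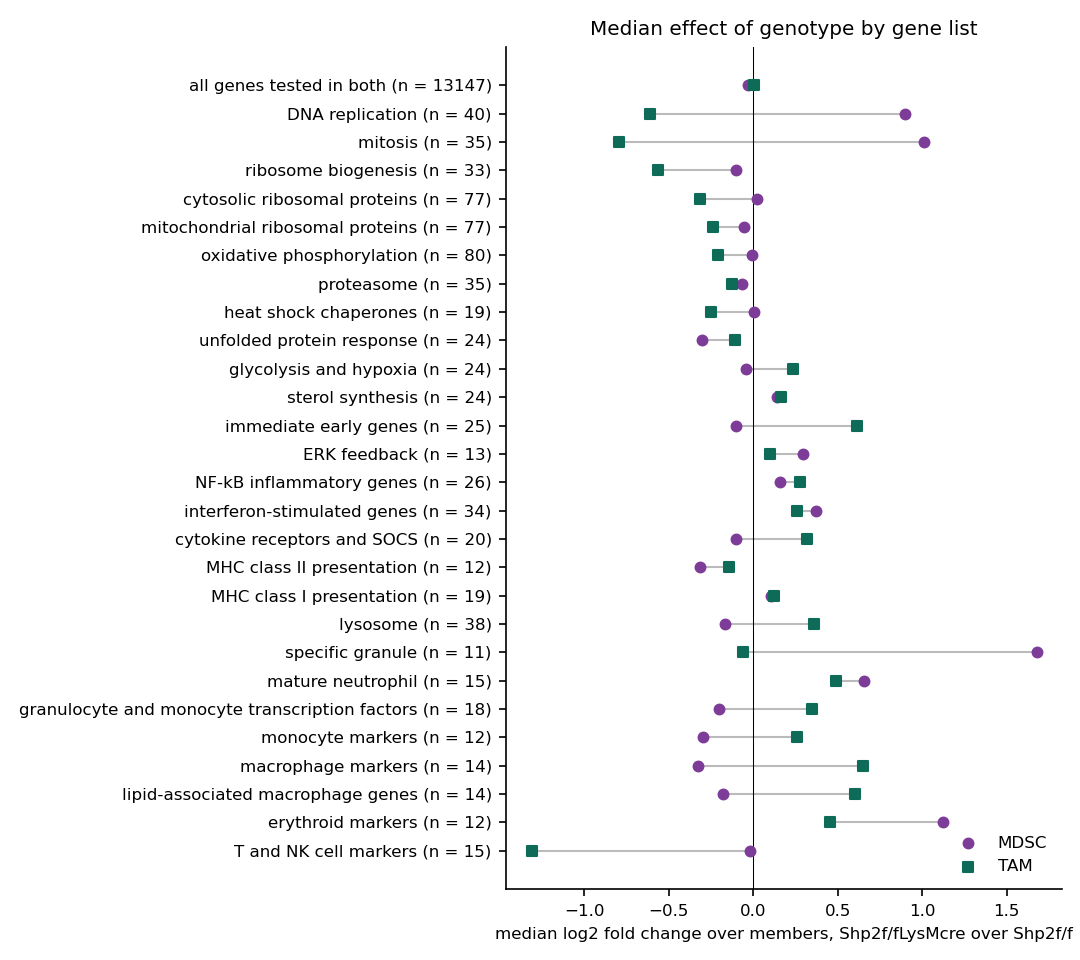
Median log2 fold change of Shp2f/fLysMcre against Shp2f/f in MDSC (purple circles) and TAM (green squares) for each gene list and for all genes tested in both. The DNA replication and mitosis lists lie at 0.90 and 1.01 in MDSC and at -0.61 and -0.79 in TAM, while the interferon-stimulated genes lie above 0 in both.

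Effects in the same direction were fewer. Interferon-stimulated genes gave 9 of the 80 genes higher in both cell types, the most of any list, while 21 of the 80 were on any list. Of 34 tested members, 9 rose in MDSC and 33 rose in TAM, none fell, and the 9 (Cmpk2, Ifit1, Ifit2, Ifit3, Oasl1, Oasl2, Rsad2, Rtp4 and Usp18) were higher in both. Among all genes tested, 3.76% rose in MDSC and 23.9% in TAM. The median log2 fold change of the list was 0.37 in MDSC and 0.26 in TAM. The difference was called for 2 members in the positive and 9 in the negative direction, or 1 and 5 by voom. By edgeR this was 32.4% of the members, near the 28.7% of all genes tested in both. The summed level was 2532 and 2531 CPM in MDSC Shp2f/f, 3193 and 3047 CPM in MDSC Shp2f/fLysMcre, 5535, 5640 and 5444 CPM in TAM Shp2f/f and 7088, 7081 and 6795 CPM in TAM Shp2f/fLysMcre.

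Ifit1 (ENSMUSG00000034459, chromosome 19, 34640871 to 34650009), which binds viral RNA lacking cap methylation, was 10.1 and 10.2 CPM in MDSC Shp2f/f, 22 and 16.9 CPM in MDSC Shp2f/fLysMcre, 102, 110 and 107 CPM in TAM Shp2f/f and 162, 157 and 142 CPM in TAM Shp2f/fLysMcre. The genotypes were apart in the same order in both cell types. The log2 fold changes were 0.94 in MDSC (edgeR quasi-likelihood, adjusted p = 0.0490) and 0.50 in TAM (edgeR quasi-likelihood, adjusted p = 8.52e-06). The difference of -0.41 (95% interval -0.74 to -0.08) did not pass (edgeR quasi-likelihood, adjusted p = 0.0713). Rsad2, which encodes the antiviral enzyme viperin, was 22.2 and 18.8 CPM in MDSC Shp2f/f, 44.2 and 35.2 CPM in MDSC Shp2f/fLysMcre, 428, 443 and 428 CPM in TAM Shp2f/f and 544, 592 and 583 CPM in TAM Shp2f/fLysMcre. It rose in both, and less in TAM, with a difference of -0.55 (edgeR quasi-likelihood, adjusted p = 0.0204). Irf7, the member with the highest CPM and a transcription factor of the interferon response, had log2 fold changes of 0.35 in MDSC (edgeR quasi-likelihood, adjusted p = 0.197) and 0.30 in TAM, with a difference of -0.01 (95% interval -0.23 to 0.21).

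Upstream stretches of Ifit1 (chr19:34640739-34640888, plus strand) and Rsad2 (chr12:26456453-26456602, minus strand) are given to show the letters of the interferon-stimulated response element. Capitals mark GAAANNGAA on either strand, with matches 100, 94 and 75 bases before the start of Ifit1 and 110 bases before that of Rsad2. Those of Ifit1 overlap in part. Both were chosen for display after their motifs had been seen. Irf7 was searched too, and its stretch, not shown, held no such letters.
Ifit1: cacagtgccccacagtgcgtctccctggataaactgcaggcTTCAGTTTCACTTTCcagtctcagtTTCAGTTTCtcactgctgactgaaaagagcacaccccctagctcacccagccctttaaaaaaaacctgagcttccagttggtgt
Rsad2: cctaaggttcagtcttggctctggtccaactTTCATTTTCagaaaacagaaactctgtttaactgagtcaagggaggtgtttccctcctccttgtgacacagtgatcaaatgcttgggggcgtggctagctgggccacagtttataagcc

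These letters were in 62.5% of 24 windows of interferon-stimulated genes, in 20.3% of 59 windows of the genes higher in both cell types, and in 7.65% of all windows. The genes higher in both include 9 of the interferon-stimulated list, and their share outside that list was not measured. They were in 6.88% of the 189 windows of opposed genes higher in MDSC and lower in TAM. The heat shock letters GAANNTTC, searched in the same way, were in 5.82% of all windows and in 56.2% of the 16 windows of heat shock chaperones.

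Further genes rose in both cell types. The calcium-binding alarmin gene S100a9 was 3218 and 3205 CPM in MDSC Shp2f/f, 10620 and 9298 CPM in MDSC Shp2f/fLysMcre, 74.1, 76.5 and 72.1 CPM in TAM Shp2f/f and 107, 117 and 107 CPM in TAM Shp2f/fLysMcre. It rose by a log2 fold change of 1.63 in MDSC and 0.54 in TAM, and its partner S100a8 by 1.30 and 0.49. Vegfa, the angiogenic growth factor, rose by 1.64 in MDSC with 7.55 and 6.15 CPM in Shp2f/f and 23 and 19.9 CPM in Shp2f/fLysMcre, and by 0.55 in TAM, with 505 to 509 CPM and 734 to 792 CPM. Slc40a1, which encodes the iron exporter ferroportin, was 63.6 and 59.9 CPM in MDSC Shp2f/f, 125 and 127 CPM in MDSC Shp2f/fLysMcre, 10.3 to 11.7 CPM in TAM Shp2f/f and 33.3 to 35.8 CPM in TAM Shp2f/fLysMcre. Slc40a1 had the larger effect in TAM, with a difference of 0.61 (edgeR quasi-likelihood, adjusted p = 0.00118). Wdfy1, an adaptor of Toll-like receptor signaling, rose by 1.14 in MDSC and 1.41 in TAM. The MDSC effect was the larger in 62 of the 80 genes, and the difference was called for 48.

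Lower in both cell types were 17 genes, among them Lyz2, where Cre is inserted, and 3 Y-linked genes. Ocstamp (ENSMUSG00000027670), a membrane protein of osteoclast and macrophage fusion, was 65.1 and 68.0 CPM in MDSC Shp2f/f, 33.5 and 32.7 CPM in MDSC Shp2f/fLysMcre, 97.0, 104 and 101 CPM in TAM Shp2f/f and 39, 37.6 and 34.3 CPM in TAM Shp2f/fLysMcre. Its log2 fold changes were -1.01 in MDSC (edgeR quasi-likelihood, adjusted p = 0.0183) and -1.48 in TAM (edgeR quasi-likelihood, adjusted p = 5.31e-09). The importin gene Ipo8 (-0.82 and -0.66), the tubulin gene Tubb6 (-0.65 and -0.48) and the protease inhibitor gene Serpinb8 (-0.72 and -0.45) fell in both, and their differences were not called. Trem2, a lipid receptor of macrophages, fell by 1.01 in MDSC and by 0.15 in TAM, and Havcr2, which encodes the checkpoint receptor TIM-3, fell by 0.72 and 0.36.

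Some programs were called mainly in TAM, in a setting where few genes were called in MDSC. Of all genes tested, 23.9% rose and 26.3% fell in TAM, and 3.76% rose and 0.52% fell in MDSC. Of 25 immediate early genes, which are transcribed within minutes of a stimulus, 21 rose and 4 fell in TAM, whereas 1 rose in MDSC and 0 fell. The difference was positive for 15 and negative for 2, or 15 and 1 by voom, and the median effects were -0.10 in MDSC and 0.62 in TAM. Fos (ENSMUSG00000021250), a component of AP-1, was 1430 and 1351 CPM in MDSC Shp2f/f, 1158 and 1149 CPM in MDSC Shp2f/fLysMcre, 1271, 1401 and 1348 CPM in TAM Shp2f/f and 2812, 2903 and 2696 CPM in TAM Shp2f/fLysMcre. Its TAM rise of 1.03 was called, the MDSC value of -0.28 was not (edgeR quasi-likelihood, adjusted p = 0.280), and the difference was 1.33 (SE 0.0921, edgeR quasi-likelihood, adjusted p = 1.49e-05). Dusp1, a phosphatase of MAP kinases, differed by 1.66, Zfp36, which destabilizes cytokine mRNA, by 1.16, and Junb by 0.58. Klf2, a factor of quiescence and anti-inflammatory control, had the second largest difference among the genes named by rule as higher in TAM alone, 2.27, with 79.1, 84.0 and 80.1 CPM in TAM Shp2f/f and 356, 330 and 316 CPM in TAM Shp2f/fLysMcre, against 259 and 280 CPM in MDSC Shp2f/f and 204 and 256 CPM in MDSC Shp2f/fLysMcre. Fosl1 went the other way and was opposed, higher in MDSC and lower in TAM.

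Genes of lysosomes and macrophages showed the same kind of difference. Of 38 lysosomal genes, 30 rose and 3 fell in TAM, and in MDSC 1 rose (Cd63) and 0 fell. The difference was positive for 29 and negative for 2, or 27 and 2 by voom, with medians of -0.17 in MDSC and 0.36 in TAM. Ctsb, which encodes the protease cathepsin B, was 1729 and 1825 CPM in MDSC Shp2f/f, 1656 and 1639 CPM in MDSC Shp2f/fLysMcre, 6208, 6476 and 6265 CPM in TAM Shp2f/f and 10570, 10380 and 9882 CPM in TAM Shp2f/fLysMcre, a difference of 0.81 (edgeR quasi-likelihood, adjusted p = 0.000127). Psap, the precursor of the saposins that present sphingolipids to lysosomal enzymes, differed by 0.84, Ctsl by 1.12 and Laptm5 by 0.51. Arsb, a sulfatase, was an exception, with -1.32 in TAM, 1.09 in MDSC (edgeR quasi-likelihood, adjusted p = 0.0975) and a difference of -2.37. All 14 macrophage markers rose in TAM, 2 of them fell in MDSC, Msr1 among them, and the difference was positive for 11. Adgre1, which encodes F4/80, was 383 and 378 CPM in MDSC Shp2f/f, 286 and 209 CPM in MDSC Shp2f/fLysMcre, 637, 679 and 636 CPM in TAM Shp2f/f and 983, 997 and 966 CPM in TAM Shp2f/fLysMcre. Its MDSC effect of -0.62 was not called (edgeR quasi-likelihood, adjusted p = 0.141), and the difference was 1.21. Mrc1, the mannose receptor gene and the marker with the highest CPM, rose by 0.68 in TAM and had 0.73 in MDSC, a difference of -0.02.

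Lipid-associated macrophage genes and cytokine receptors followed. Of 14 lipid-associated genes 11 rose and 3 fell in TAM, and the difference was positive for 10 and negative for 2. Apoe, the lipid carrier of macrophages, rose by 1.01 in TAM and differed by 1.05, the secreted phosphoprotein gene Spp1 differed by 1.36, and Cd36, a fatty acid receptor, by 0.82. Of 20 genes of cytokine receptors and their feedback, 18 rose in TAM and 0 were called in MDSC, where the median was -0.10, and the difference was positive for 14 and negative for 2. Il4ra, which encodes the receptor chain for interleukin 4 and interleukin 13, was 814 and 794 CPM in MDSC Shp2f/f, 574 and 469 CPM in MDSC Shp2f/fLysMcre, 908, 923 and 908 CPM in TAM Shp2f/f and 1704, 1689 and 1590 CPM in TAM Shp2f/fLysMcre. Its TAM rise of 0.83 was called, the MDSC value of -0.63 was not (edgeR quasi-likelihood, adjusted p = 0.0881), and the difference was 1.49 (edgeR quasi-likelihood, adjusted p = 3.12e-05). Socs3, a feedback inhibitor of STAT3 signals, differed by 1.28. Of 12 monocyte markers, 9 rose and 2 fell in TAM, and the difference was positive for 7. None was called in MDSC, where 11 of the 12 had a log2 fold change below 0 with a median of -0.30, and the summed level was 9254 to 9656 CPM in Shp2f/f and 6214 to 8079 CPM in Shp2f/fLysMcre, without overlap. For 9 of the 12 the values were below 0 in MDSC and above 0 in TAM. F13a1, a transglutaminase of monocytes, had -0.68 in MDSC, 0.80 in TAM and a difference of 1.51, while Ccr2 had -0.53 in MDSC and -0.45 in TAM, a difference of 0.11.

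**Figure D5:**
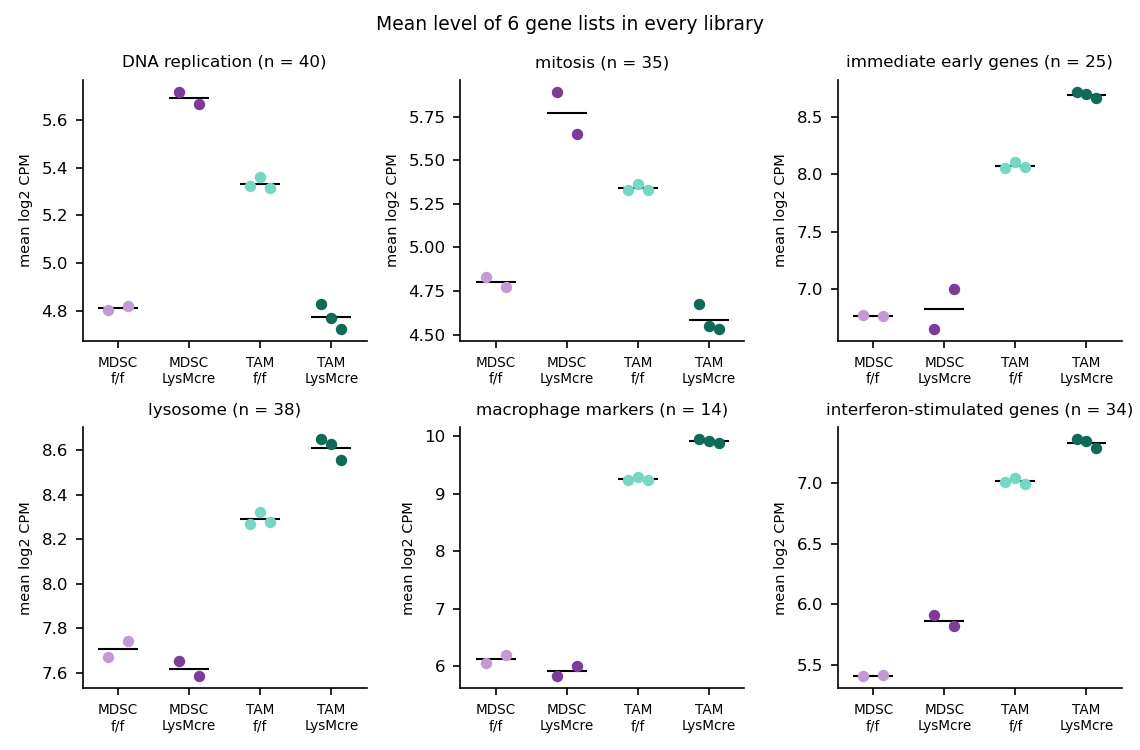
Mean log2 CPM of the members of 6 gene lists in each of the 10 libraries, with a line at each group mean. The DNA replication and mitosis lists were higher in the 2 MDSC and lower in the 3 TAM libraries of Shp2f/fLysMcre than in those of Shp2f/f, the interferon-stimulated genes were higher in both, and the immediate early, lysosome and macrophage lists were higher in TAM.

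Granule genes were called mainly in MDSC. Of 11 specific granule genes, which are transcribed in developing neutrophils, 7 rose in MDSC and 2 in TAM, and the difference was negative for 8 and positive for 1, or 6 and 1 by voom. Ngp (ENSMUSG00000032484), a neutrophil granule protein, was 710 and 612 CPM in MDSC Shp2f/f, 4488 and 3363 CPM in MDSC Shp2f/fLysMcre and 4.44 to 7.01 CPM in the 6 TAM libraries. Its MDSC rise was 2.57 and the difference -2.88 (SE 0.251, edgeR quasi-likelihood, adjusted p = 4.86e-05). Ltf, which encodes the iron-binding protein lactoferrin, rose by 2.49 in MDSC, and the granulocyte factor genes Cebpe and Gfi1 by 1.94 and 2.26. Of the 7 azurophil granule genes 2 were tested in both cell types, Prtn3 and Cst7, and both had a negative difference. Of 15 mature neutrophil genes 4 rose in MDSC, and in TAM 10 rose and 1 fell, with 4 positive and 5 negative differences. Among all genes tested, 3.76% rose in MDSC and 23.9% in TAM. Mmp9, which encodes a gelatinase, was 3981, 4258 and 3979 CPM in TAM Shp2f/f and 2027, 2051 and 1946 CPM in TAM Shp2f/fLysMcre. The summed level of the specific granule list was 6453 and 6460 CPM in MDSC Shp2f/f and 18970 and 14550 CPM in MDSC Shp2f/fLysMcre, so granulocyte precursor transcripts moved in the same libraries as the division genes. Their part in the opposed effects was not tested. The chemokine genes Cxcl9 and Cxcl10, induced by interferon gamma, were also called in MDSC alone, Cxcl9 with 0.900 and 1.04 CPM in MDSC Shp2f/f, 5.2 and 6.64 CPM in MDSC Shp2f/fLysMcre and 25.7 to 28 CPM in TAM, and Cxcl10 with a difference of -1.69. Of 18 granulocyte and monocyte transcription factor genes the difference was positive for 10 and negative for 4.

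Growth and energy genes changed in TAM, mostly with no call in MDSC. Among all genes tested in TAM, 26.3% fell and 23.9% rose. Of 33 ribosome biogenesis genes 31 fell in TAM and 0 were called in MDSC, with medians of -0.57 and -0.10, and the difference was negative for 18 and positive for 1. Dkc1, a pseudouridine synthase of ribosomal RNA, differed by -0.95 and Ncl, the nucleolar protein nucleolin, by -0.59. Their known activator Myc had no difference called, with 55.4 to 59.6 CPM in TAM Shp2f/f and 51.8 to 60.6 CPM in TAM Shp2f/fLysMcre, and was added after its values were seen. Of 77 cytosolic ribosomal protein genes 74 fell in TAM with a median of -0.31, and the difference was called for 10, below the background of 28.7%. Likewise 59 of 77 mitochondrial ribosomal protein genes and 53 of 80 oxidative phosphorylation genes fell in TAM, and the difference was negative for 7 and 4. Of 35 proteasome genes 16 fell in TAM, and the difference was called for 0 by either tool. Glycolysis and hypoxia genes rose in TAM for 18 of 24, with 11 positive differences and 1 negative. Ddit4, an inhibitor of mTOR induced by stress, was 24.6, 25.6 and 27.4 CPM in TAM Shp2f/f and 87.6, 76.3 and 68.7 CPM in TAM Shp2f/fLysMcre, and 23.7 to 28.4 CPM in the 4 MDSC libraries, a difference of 1.62.

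The remaining programs had both signs. The difference was positive for 9 and negative for 1 of 24 unfolded protein response genes, for 3 and 6 of 19 heat shock chaperones, for 6 and 3 of 24 sterol synthesis genes and for 8 and 2 of 26 NF-kB inflammatory genes. Hspa1a, an inducible chaperone, was 14.2 to 17.2 CPM in TAM Shp2f/f and 55.3 to 62.1 CPM in TAM Shp2f/fLysMcre, against 6.80 to 11.6 CPM in the MDSC libraries. In the ERK feedback list, whose members are induced by the kinase that SHP-2 is known to help activate, 5 of 13 genes rose and 6 fell in TAM, 0 were called in MDSC, and the difference was positive for 4 and negative for 3. Dusp6, a phosphatase of ERK, rose in TAM, with 52.9 to 56.2 CPM in Shp2f/f and 103 to 107 CPM in Shp2f/fLysMcre, a difference of 1.13, while Spry1, an inhibitor of RAS signals, fell in TAM, with 19.5 to 22.3 CPM and 8.31 to 10.4 CPM. The ERK feedback genes thus did not share a direction. The difference was positive for 3 and negative for 2 of 12 class II and of 19 class I presentation genes. Calls in either direction made up 41.7% of class II and 26.3% of class I genes, beside 28.7% of all genes tested in both. The same share was 37.5% for sterol synthesis, 38.5% for NF-kB, 41.7% for unfolded protein response, 47.4% for heat shock and 53.85% for ERK feedback genes. Il1b, the inflammatory gene with the highest CPM, rose by 0.26 in TAM and had 0.19 in MDSC, a difference of 0.11 that was not called. The medians of the sterol synthesis, ERK feedback and class I presentation lists were within 0.1 of 0 and took the other sign under total-count scaling.

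Markers of other cells were measured in the same libraries. The 15 T and NK cell markers summed to 58.7 to 63.7 CPM in TAM Shp2f/f and 25.2 to 25.9 CPM in TAM Shp2f/fLysMcre, and to 43.4 to 63.0 CPM in MDSC, and 14 of the 15 fell in TAM with 10 negative differences. Of the fibroblast and matrix list 17 were tested in both, 0 were called in MDSC, and 6 negative differences and 1 positive (2 and 1 by voom) were found. Without MDSC Shp2f/fLysMcre replicate 2 there were 3 negative and 2 positive differences, and the median moved from -4.30 to 0.58. Tnc was 75.6 CPM in that library against 0.108 to 0.375 CPM in the other MDSC libraries, and without it the difference of Tnc was 1.26 in place of -7.14. Pancreas markers summed to 894 to 6820 CPM in TAM Shp2f/f and 20.6 to 100.2 CPM in TAM Shp2f/fLysMcre. Of 4 B cell markers tested in both, each had a positive difference, and 7 more were tested in MDSC only. B cell markers summed to 215 to 290 CPM in MDSC Shp2f/f, 310 to 385 CPM in MDSC Shp2f/fLysMcre and at most 57.6 CPM in TAM. Of 6 immunoglobulin segments tested in both, 3 had a positive difference, and 186 more were tested in MDSC only. Segments summed to 3539 to 4787 CPM in MDSC Shp2f/f, 5998 to 8996 CPM in MDSC Shp2f/fLysMcre and at most 40.5 CPM in TAM. Their counts are uncertain because segments share reads. Megakaryocyte markers had 2 positive differences among 6 (33.3%), and dendritic cell markers 2 positive and 1 negative among 8 (37.5%), beside 28.7% of all genes tested in both. Eosinophil, basophil and mast cell markers had 0 among 3 and keratinocyte markers 0 among 2 by edgeR and by voom. Their part in the effects above was not tested.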

How the data were processed

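RNA was measured by stranded poly(A) sequencing in 10 samples. The deposited counts were made by the authors with cutadapt 2.5, STAR 2.7.3a on GRCm38 with Ensembl annotation and featureCounts of Subread 1.6.2, per the study's methods and processing notes; the strand and multi-mapping settings are not given in the sources used here. A deposited table of normalized values was not used.

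Counts were analysed in R 4.3.3 with edgeR 4.0.16 (filterByExpr with a minimum count of 10, TMM, quasi-likelihood test, Benjamini-Hochberg adjustment, threshold 0.05). The difference came from 1 model of 10 samples, and the effect within a cell type from a fit of that cell type alone. CPM are TMM-scaled, and their precision is limited by the 2 or 3 samples per group. Opposed genes were called in both cell types with opposite sign and in the difference, like genes in both with the same sign. Limma 3.58.1 voom with a weight per cell type and DESeq2 1.42.0 were alternatives. The code was tested on simulated data.

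Members and gene lists were chosen with earlier results of these data known. The text names Ptpn11, Lyz1 and Lyz2, and among genes averaging 10 CPM or more that were neither immunoglobulin, X-linked nor Y-linked, did not overlap and were called by edgeR and voom, the 10 largest opposed differences of each direction, the 6 like genes of each direction by the smaller effect and 3 per direction called in 1 cell type, and the 4 members of each list with the highest CPM. Other genes named were chosen after their values were seen. One gene that the rule names is not reported here. Deviations from the group means of samples sharing a replicate number had correlations of -0.146 to 0.174 over genes. The values of the 2 MDSC pairs are equal by construction, since deviations within a group of 2 mirror each other. These correlations cannot decide whether samples were paired, and a replicate block gave larger opposed and like classes. No label ties samples together, so the numbers were not used as pairs.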

Additional observations from a re-analysis of the deposited data

Results flagged for a closer look

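The genotype effect differed between MDSC and TAM by the interaction test for 2030 genes in the positive and 2102 genes in the negative direction. The same test, with calls within both cell types, singled out the 242 genes higher in MDSC and lower in TAM and the 22 of the reverse kind. It was passed by 40 members of the DNA replication list and 35 members of the mitosis list, all with a more negative effect in TAM.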

How the results depend on the processing

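Counts are given as difference calls in all, positive and negative, and then as opposed genes higher in MDSC, opposed genes lower in MDSC, like genes higher and like genes lower. The reported counts were 4132, 2030 and 2102, then 242, 22, 80 and 17. DESeq2 gave 373, 137, 149 and 51 in the classes. Total-count scaling gave 1234 positive calls, and voom 1281 negative calls. No filter on low counts gave 47, 2, 18 and 4 in the classes. With the replicate block the classes held 609, 304, 300 and 150 genes, and with a replicate block within genotype across cell types the calls were 970, 421 and 549; the samples share only a number. Separate fits combined gave 2459, 1086 and 1373 calls. Effects from the model of 10 samples gave classes of 527, 401, 293 and 110. An adjusted p under 0.01 gave 2220, 1127 and 1093 calls and classes of 0, 0, 2 and 1. An absolute difference of at least 1 gave 1496, 288 and 1208 calls. With 2 samples in every group there were 2421, 1189 and 1232 calls. Leaving out 1 library at a time gave 2446 to 7023 calls, 1282 to 3490 positive and 1164 to 3533 negative, with classes of 0 to 780, 0 to 746, 0 to 384 and 1 to 306. The difference of Tnc ranged from -8.12 without MDSC Shp2f/fLysMcre replicate 1 to 1.26 without MDSC Shp2f/fLysMcre replicate 2. The cause of these changes was not tested. In alternatives chosen after seeing the data, with MDSC Shp2f/f replicate 1 or 2 left out, voom gave 0 opposed genes and DESeq2 gave 58 and 33 higher in MDSC and 6 and 5 lower. With 2 MDSC libraries per genotype, calls within MDSC are limited by the spread of those 4 libraries.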
